A study of Homo sapiens with 6 samples.

Results

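The transcripts described here are those of 10 transcription factors that answer early to growth and stress signals: the FOS family (FOS, FOSB, FOSL1 and FOSL2), the JUN family (JUN, JUNB and JUND), EGR1, SRF and MYC. They were picked by name, as the Ensembl identifiers (version dropped) that map to these symbols, and all 10 were found among the 60708 gene identifiers of the count files. All 10 had enough counts to enter the test, which covered 20409 genes. The cells were U2OS, an established human osteosarcoma line described as wild type, and both groups were grown in the same medium with serum. The 3 control libraries came from cells given the solvent DMSO, and the 3 libraries called PARGi came from cells given 25 µM PDD00017273, which blocks PARG, the glycohydrolase known for trimming poly(ADP-ribose) chains from proteins. Exposure lasted 4 days in both groups, so the values describe cells at that single time and not the first hour of exposure. Whether the levels were steady up to then was not tested. The libraries are described as biological triplicates of a single cell line, without word on separate cultures, so the p-values measure the spread between these samples, which may be partly technical.

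FOS and JUN proteins carry a basic region and a leucine zipper. They pair through the zipper into the dimers known as AP-1, which bind DNA at the sequence TGACTCA and, with ATF-type partners, at TGACGTCA. JUN proteins can pair with each other, whereas FOS proteins need a JUN partner. EGR1 is a zinc finger factor, and SRF is a MADS-box factor that binds the CArG box in front of FOS, EGR1 and many cytoskeletal genes. MYC pairs with MAX on the E-box CACGTG and drives growth genes. In mesenchymal cells these factors are known for linking growth factor, stress and matrix signals to proliferation and matrix turnover.

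Library totals ran from 60286931 to 80605145 counts and did not separate the groups (3 against 3, two-sided exact permutation p = 0.7; no split of 3 against 3 can go below 0.1). Mitochondrially encoded genes took 3.48% to 3.88% of the counts (exact permutation p = 0.6). Of 9 mesenchymal and osteoblast markers, COL1A1, SPARC and VIM were abundant (4374, 1677 and 2476 CPM in DMSO, where CPM is the count scaled to a common library size after TMM normalization) and RUNX2 stood at 83.3 CPM, while the osteoblast genes BGLAP, IBSP and SP7 were at or near 0. Of the 6 of these markers tested, RUNX2 (69 CPM in PARGi), COL1A2 (13 to 7.41 CPM) and SPARC (1583 CPM in PARGi) were called lower by edgeR and ALPL (4.68 to 5.52 CPM) higher. The call of ALPL depended on the tool: DESeq2 and limma-voom each called 0 of these markers higher and 4 lower. Of 8 genes that mark other cells or telomerase, EPCAM was highest at 3.53 CPM in DMSO. Only 5 of these 8 had enough counts to be tested, and CDH1 was the single one to pass (0.718 to 1.14 CPM, edgeR adjusted p = 0.0104). TERT, which U2OS cells are known to lack, was near 0 in both groups (0.00973 and 0.0138 CPM).

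Of the 10 factors, 6 were higher in PARGi and none was lower at an adjusted p under 0.05 (edgeR quasi-likelihood test, Benjamini-Hochberg over all genes tested): FOSL1, FOSL2, JUN, JUNB, JUND and EGR1. The call rate over all tested genes was 24.3%, with 13.2% called higher and 11.0% called lower. Of all calls 54.5% were higher, a share that was 40.5% with upper-quartile scaling and 64.8% with an offset for GC content and length. The same 6 had all PARGi libraries above all DMSO libraries, which held for 19.8% of all tested genes. At an unadjusted p under 0.05 no factor was lower either, and DESeq2 and limma-voom each called 6 higher and 0 lower. The changes were modest, from 7.14% for JUN to 37.9% for FOSL1. FOS, FOSB, SRF and MYC did not pass the test. In bulk RNA a smaller number of expressing cells and less RNA per cell cannot be told apart, and this touches every value below. The plot of CPM by library shows the 10 factors side by side.

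**Figure D1:**
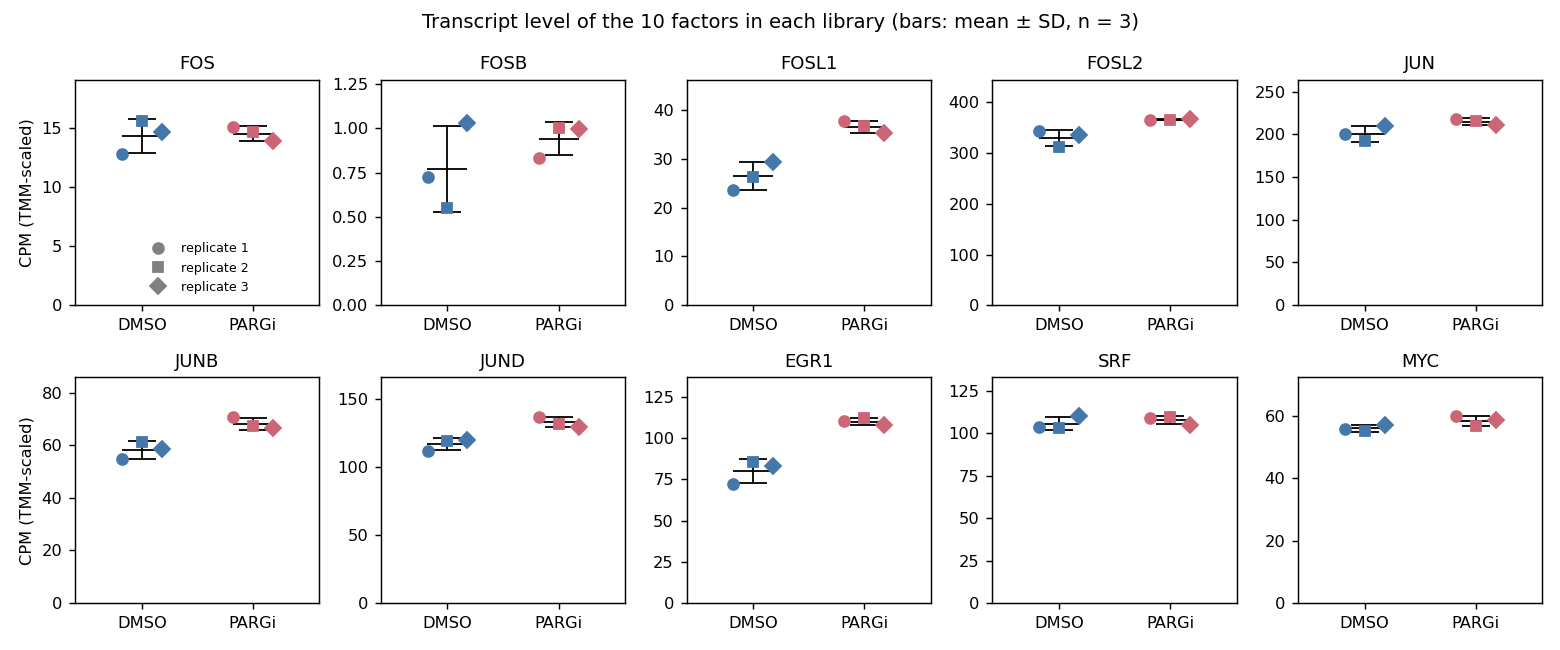
Transcript level of each factor in CPM after TMM scaling (vertical axis, from 0), with 1 symbol per library and the replicate number as its shape; black bars give the mean ± SD of 3 libraries. FOSL1 and EGR1 show the largest relative rise from DMSO (23.6 to 29.3 and 72.1 to 85.4 CPM) to PARGi (35.3 to 37.7 and 108 to 112 CPM), and the groups overlap for FOS, FOSB, SRF and MYC.

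On GRCh38, with gene models of GENCODE 29, all 10 are protein-coding genes. FOS (ENSG00000170345.10) lies at chr14:75278774-75282230, FOSB (ENSG00000125740.14) at chr19:45467995-45475179, FOSL1 (ENSG00000175592.9) at chr11:65892049-65900573 and FOSL2 (ENSG00000075426.12) at chr2:28392448-28417312. JUN (ENSG00000177606.8) lies at chr1:58780788-58784327, JUNB (ENSG00000171223.6) at chr19:12791496-12793315 and JUND (ENSG00000130522.6) at chr19:18279760-18281622. EGR1 (ENSG00000120738.8) lies at chr5:138465490-138469315, SRF (ENSG00000112658.8) at chr6:43171299-43181507 and MYC (ENSG00000136997.21) at chr8:127735434-127741434. FOSL1, JUN and JUND are on the minus strand. The values are sums over whole genes, so exons, introns and UTRs were not told apart.

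The level of each factor, set per exonic length as TMM-scaled CPM per kilobase of exon (RPKM), gives the make-up of the pool. In DMSO the order from the top was JUND (62.7 ± 2.39 RPKM), JUN (56.7 ± 2.62), FOSL2 (46.2 ± 2.21), JUNB (32 ± 1.8), EGR1 (25.6 ± 2.28), SRF (25.2 ± 0.934), MYC (18.7 ± 0.369), FOSL1 (14 ± 1.52), FOS (4.44 ± 0.438) and FOSB (0.139 ± 0.0442; SD, n = 3 throughout). Neighbours in this order had separate libraries except EGR1 and SRF, which overlapped. In PARGi the order was kept down to SRF, and EGR1 (35 ± 0.552 RPKM) then stood clear of SRF (25.7 ± 0.565 RPKM). FOSL1 reached 19.4 ± 0.641 RPKM in PARGi and overlapped MYC, at 19.4 ± 0.542 RPKM. The factors best known as the first to be induced, FOS and FOSB, were thus the scarcest of the 10 transcripts in both groups. Exonic length is the union of all annotated exons, so a gene read mostly from a short isoform is understated on this scale.

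**Figure D2:**
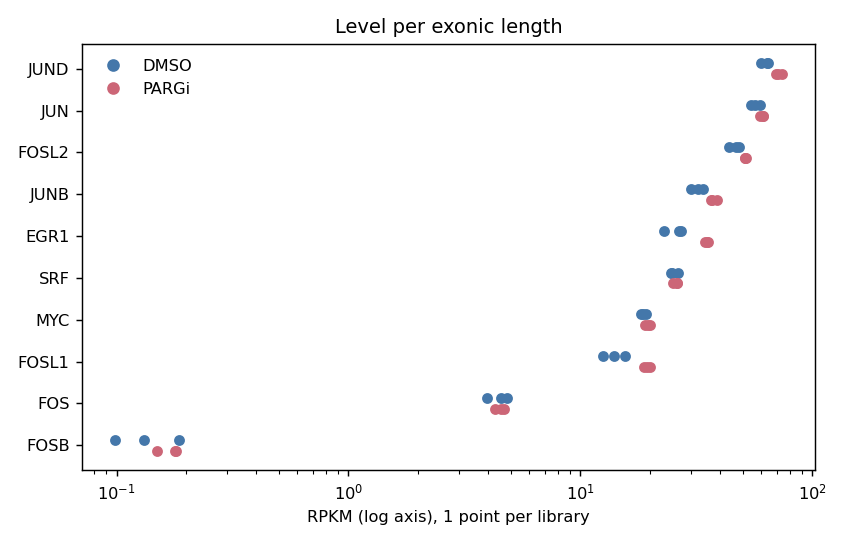
RPKM on a log axis for each factor, 1 point per library, ordered by the DMSO mean. JUND, JUN and FOSL2 lie at 43.8 RPKM or more in every library and FOSB at 0.186 RPKM or less.

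Within the FOS family, FOSL2 was the most abundant transcript and FOSL1 the one that rose furthest. FOSL2 encodes FRA-2, which lacks the strong activation domain of FOS. It was counted at 343, 313 and 336 CPM in DMSO and at 366, 365 and 368 CPM in PARGi. The PARGi libraries were nearly equal and all lay above the highest DMSO library. The rise was 10.7% (95% confidence interval 6.28% to 15.3%; log2 fold change 0.15, SE 0.029, edgeR adjusted p = 0.000447).

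FOSL1 encodes FRA-1, the other FOS relative without that domain, known as an AP-1 subunit of cells with sustained ERK signalling and of invasive tumour lines. Its level was 23.6, 26.3 and 29.3 CPM in DMSO and 37.7, 36.7 and 35.3 CPM in PARGi. Every PARGi library was above every DMSO library, and the DMSO libraries differed more among themselves than the PARGi libraries did. The log2 fold change was 0.46 (SE 0.052, 95% confidence interval 0.36 to 0.57, edgeR adjusted p = 3.47e-07), and 8.87% of tested genes had a larger absolute change.

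FOS itself, the classic immediate-early gene, was at 12.8, 15.6 and 14.7 CPM in DMSO and 15.1, 14.7 and 13.9 CPM in PARGi. The groups overlapped throughout. Its log2 fold change was 0.018 (95% confidence interval -0.10 to 0.14, edgeR adjusted p = 0.864), so a change beyond -6.97% or 10.3% lay outside the interval, and a smaller one was not detectable with this spread. The sign of that small value turned without DMSO replicate 1 (-0.058), without PARGi replicate 1 (-0.006) and with upper-quartile scaling (-0.006), with adjusted p-values from 0.406 to 0.967 over 15 alternatives.

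FOSB was counted 46, 35 and 77 times in the DMSO libraries and 50, 74 and 80 times in the PARGi libraries, or 0.55 to 1.03 and 0.834 to 1 CPM. These counts are too few for a firm statement: the log2 fold change of 0.28 had an interval from -0.15 to 0.71 (edgeR adjusted p = 0.362), and leaving out 1 library moved it between 0.096 (without DMSO replicate 2) and 0.57 (without DMSO replicate 3). FOSB lies across from ERCC1 on the opposite strand, with no shared exon.

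Summed per length, the FOS family went from 64.8 ± 2.32 RPKM in DMSO to 75.2 ± 0.666 RPKM in PARGi (SD, n = 3 each; a description, with no test). FOSL2 supplied 71.3% ± 2.56 of that sum in DMSO and 68% ± 0.819 in PARGi. The FOSL1 share was 19.4%, 22.3% and 23.1% in the DMSO libraries and 26.3%, 25.9% and 25.1% in the PARGi libraries, which did not overlap. FOS supplied 6.86% ± 0.784 and 5.99% ± 0.205, and FOSB at most 0.277% in any library. The FOS-family pool of both groups was thus mainly FOSL2 and FOSL1 transcript. On raw counts, where the long FOSL2 transcript weighs more, the FOSL1 share was 7.1% in DMSO and 8.73% in PARGi.

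**Figure D3:**
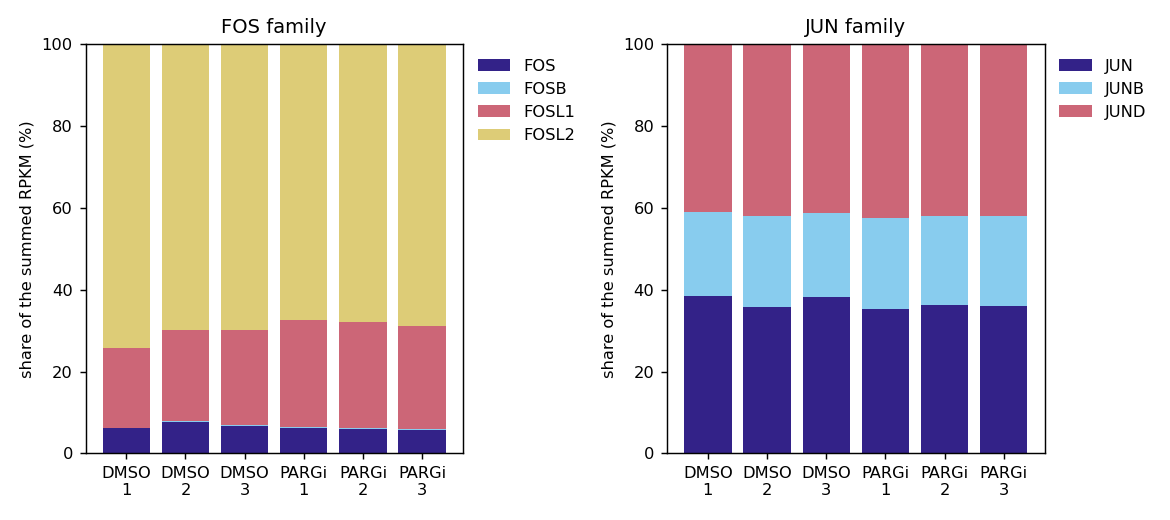
Share of each member in the summed RPKM of its family (vertical axis, %), 1 bar per library. In the FOS family the FOSL1 share is 19.4% to 23.1% in DMSO and 25.1% to 26.3% in PARGi; in the JUN family JUND holds 40.9% to 42.3% and JUN 35.3% to 38.5% of every library.

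All 3 JUN genes passed the test as higher. GENCODE 29 gives JUN and JUNB a single transcript of 1 exon each, and JUND 2 transcripts, of which 1 has a single exon. JUNB, which can hold back JUN-driven transcription, was at 54.7, 61.2 and 58.7 CPM in DMSO and 70.7, 67.2 and 66.6 CPM in PARGi. No PARGi library reached down to the DMSO range. Its log2 fold change was 0.23 (SE 0.035, edgeR adjusted p = 3.98e-05), a rise of 16.9%. JUNB shares 259 exonic bases with HOOK2 on the opposite strand, and HOOK2 went from 25.6 ± 2.16 to 26 ± 1.01 CPM (not called, log2 fold change 0.016, edgeR adjusted p = 0.856).

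JUND, the JUN member that most cells express steadily, was at 112, 119 and 119.9 CPM in DMSO and 137, 132 and 129.6 CPM in PARGi. The groups were again separate. The log2 fold change was 0.18 (SE 0.03, 95% confidence interval 0.12 to 0.25, edgeR adjusted p = 5.88e-05).

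JUN, a strong activator, showed the smallest of the 6 rises. It was at 200.0, 192 and 210.2 CPM in DMSO and 218, 216 and 211 CPM in PARGi, so that the highest DMSO and lowest PARGi libraries nearly met. The log2 fold change was 0.10 (SE 0.029, 95% confidence interval 0.039 to 0.16, edgeR adjusted p = 0.0143). This call was lost with upper-quartile scaling (adjusted p = 0.0516) and without DMSO replicate 1, DMSO replicate 2, PARGi replicate 1 or PARGi replicate 2 (log2 fold changes 0.095, 0.068, 0.091 and 0.096, adjusted p from 0.051 to 0.0757), and over 15 alternatives the adjusted p ran from 0.000243 to 0.0757. The summed JUN family was 151 ± 4.72 RPKM in DMSO and 169.5 ± 4.13 RPKM in PARGi, with JUND at 41.4% and 42.1% of the sum and JUN at 37.4% and 35.8%.

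The JUN and JUND promoters are printed because they show the AP-1 type sites through which such genes are known to answer to AP-1 and ATF proteins. They are the 250 bases before the RefSeq start (GRCh38.p14, which has the chromosome coordinates of the hg38 build named in the submitters' processing notes), 5′ to 3′ on the gene's strand, with matches in capitals. The JUN stretch is chr1:58784048-58784297 on the minus strand and that of JUND chr19:18281623-18281872 on the minus strand.
JUN: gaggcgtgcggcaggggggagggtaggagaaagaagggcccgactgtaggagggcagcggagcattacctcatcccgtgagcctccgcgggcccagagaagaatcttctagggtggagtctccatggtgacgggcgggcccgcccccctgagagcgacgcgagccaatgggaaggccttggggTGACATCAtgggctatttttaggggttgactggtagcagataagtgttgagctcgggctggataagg
JUND: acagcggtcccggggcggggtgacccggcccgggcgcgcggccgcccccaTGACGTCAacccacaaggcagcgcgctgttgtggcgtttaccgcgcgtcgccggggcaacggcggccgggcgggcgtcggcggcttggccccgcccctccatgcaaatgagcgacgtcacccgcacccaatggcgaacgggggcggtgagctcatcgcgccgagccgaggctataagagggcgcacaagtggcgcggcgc
The capitals mark TGACATCA in JUN, at bases -67 to -60 counted back from the start, and TGACGTCA in JUND, at bases -200 to -193. Searched on both strands over windows of 300 bases (250 before to 50 after the start), TGACATCA was found in 2.61% and TGACGTCA in 1.85% of 35116 RefSeq promoters. The consensus AP-1 site TGACTCA, in 4.95% of promoters, was found in FOSL2 at bases 5 to 11 after its start. TATAAA, in 11.5% of promoters, lay at bases -33 to -28 of FOS, -30 to -25 of FOSB and -31 to -26 of JUNB, and in SRF at bases 15 to 20 after its start, on the other strand. The E-box CACGTG, in 7.26% of promoters, was in none of the windows of the 8 factors matched. Matches are letters in a window and were not tested as binding sites.

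EGR1 had the smallest p-value of the 10 factors. EGR1 is an immediate-early gene that SRF and its ERK-activated partners are known to drive. It was at 72.1, 85.4 and 83.1 CPM in DMSO and 110.2, 112 and 108 CPM in PARGi. The gap between the groups was wider than the spread within either of them. The rise was 37% (95% confidence interval 29.3% to 45.2%; log2 fold change 0.45, SE 0.04, edgeR adjusted p = 9.86e-09). With 1 library left out at a time, the lowest value was 0.38, when DMSO replicate 1 was dropped, and the highest 0.50, when DMSO replicate 2 was dropped, at an adjusted p of 1.87e-06 or less.

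SRF, by contrast, was at 104, 103 and 110.2 CPM in DMSO and 109, 109.7 and 105 CPM in PARGi. The groups overlapped, and the log2 fold change was 0.031 (95% confidence interval -0.029 to 0.092, edgeR adjusted p = 0.489). A rise above 6.59% lay outside the interval.

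EGR1 and SRF share a promoter feature, printed here because both hold a pair of CArG boxes while the test called EGR1 and not SRF. The EGR1 stretch is chr5:138465229-138465478 on the plus strand, and the first of the SRF starts in RefSeq has chr6:43171019-43171268 before it, on the plus strand (GRCh38.p14, 5′ to 3′).
EGR1: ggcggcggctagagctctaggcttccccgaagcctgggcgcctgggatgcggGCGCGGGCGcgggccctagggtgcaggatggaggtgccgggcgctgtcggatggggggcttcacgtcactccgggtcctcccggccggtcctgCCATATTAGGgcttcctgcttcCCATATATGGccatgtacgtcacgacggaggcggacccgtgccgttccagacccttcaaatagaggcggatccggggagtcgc
SRF: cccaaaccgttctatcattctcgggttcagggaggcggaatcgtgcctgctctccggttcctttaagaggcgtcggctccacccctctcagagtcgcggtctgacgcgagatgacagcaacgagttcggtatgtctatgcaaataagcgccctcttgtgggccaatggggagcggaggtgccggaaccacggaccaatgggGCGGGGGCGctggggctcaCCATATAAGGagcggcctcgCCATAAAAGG
The capitals mark the CArG boxes, at bases -105 to -96 and -83 to -74 of EGR1 and at bases -30 to -21 and -10 to -1 of SRF, and a match to the EGR site GCGNGGGCG, at bases -198 to -190 of EGR1 and -49 to -41 of SRF. A CArG box was found in 1.29% and an EGR site in 9.43% of the 35116 promoters, searched on both strands, and no match overlapped another in these genes.

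MYC was at 55.7, 55.1 and 57.2 CPM in DMSO and 59.9, 56.6 and 58.6 CPM in PARGi. The groups overlapped by a single library on each side, and the difference did not pass the test (log2 fold change 0.059, SE 0.031, 95% confidence interval -0.005 to 0.12, edgeR adjusted p = 0.179). It passed only with an offset for GC content and length (log2 fold change 0.091, adjusted p = 0.0169, and 0.0268 with the replicate block added). Over 15 alternatives its adjusted p ran from 0.0169 to 0.472.

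**Figure D4:**
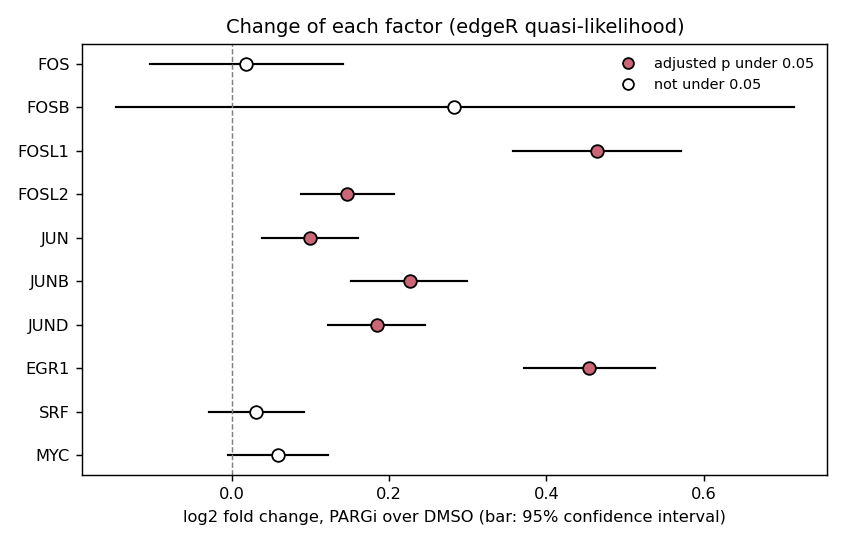
Log2 fold change of PARGi over DMSO for each factor (point) with its 95% confidence interval (bar); filled points had an adjusted p under 0.05 in the edgeR fit over all genes. FOSL1 (0.46) and EGR1 (0.45) lie furthest to the right, JUN (0.10) is the smallest filled point, and the interval of FOSB is the widest.

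The spread of the factors within groups was uneven. For 9 of the 10 factors, all but MYC, the SD of log2 CPM was larger in DMSO than in PARGi, which held for 56.2% of all tested genes. DMSO replicate 1 was the lowest DMSO library for FOS, FOSL1, JUNB, JUND and EGR1, 5 of 10 factors, against 30.6% of all genes. Without it, FOSL1, JUNB, JUND and EGR1 had log2 fold changes of 0.39, 0.18, 0.15 and 0.38, the smallest of their 6 leave-out values, and each stayed past the threshold (highest adjusted p of any leave-out fit, 0.00177, for JUND).

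The genes around these factors were read from lists chosen by role, with earlier results of these data known. Among 28 other immediate-early genes, 18 were higher and 2 lower (71.4% called). Over all genes tested 24.3% were called, 13.2% higher and 11.0% lower. Their median log2 fold change of 0.26 stands beside -0.007 over all genes tested. DUSP5, a nuclear phosphatase that switches off ERK, had the smallest p, with 26.5, 27.5 and 28.1 CPM in DMSO and 48.3, 47.1 and 46.3 CPM in PARGi (log2 fold change 0.79, edgeR adjusted p = 7.7e-14). CCN1 and CCN2, secreted matrix proteins that SRF and YAP are known to drive, rose from 374 ± 8.06 to 490 ± 12.5 CPM and from 315 ± 4.75 to 403 ± 6.6 CPM. The lower genes were SGK1, a serum-induced kinase (35.8 ± 2.22 to 28 ± 1.27 CPM), and GADD45B, a stress-signal adaptor (58.8 ± 1.42 to 52.1 ± 3.66 CPM). Of the paralogs of EGR1, named after their values were seen, EGR2 rose (11.4 ± 0.556 to 14.4 ± 0.458 CPM, edgeR adjusted p = 5.16e-05) while EGR3 (0.069) and EGR4 (0.58) did not pass, with adjusted p = 0.773 and 0.0885. ATF3, BTG2, PLK2 and PLK3 of this list are also known p53 targets, and CDKN1A, the best known p53 target, rose from 116 ± 2.55 to 195 ± 5.47 CPM (edgeR adjusted p = 3.72e-15). The part of p53 in the list's counts was not tested.

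Of 14 tested bZIP partners and relatives of AP-1, 4 were higher and 2 lower (42.9% called, beside 24.3% of all genes tested). Their median was -0.026, and 0.008 without DMSO replicate 3. ATF3, a stress-induced JUN partner, went from 7.47 ± 0.169 to 9.71 ± 0.566 CPM (log2 fold change 0.37, edgeR adjusted p = 9.1e-05). CREB5 (81.3 ± 2.97 to 91.6 ± 3.53 CPM) and MAFF, a small MAF protein (30.1 ± 1.89 to 34.4 ± 0.272 CPM), rose by less. MAF, a large MAF protein, fell from 112 ± 2.92 to 86.4 ± 3.16 CPM (log2 fold change -0.38, edgeR adjusted p = 1.13e-09).

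Of 29 MAP kinase pathway genes, 8 were higher and 2 lower (34.5% called, beside 24.3% of all genes tested). Their median of 0.02 turned to -0.004 with upper-quartile scaling. The clearest change was a fall: MAP2K6, a kinase that activates p38, had 12.7, 11.8 and 12.8 CPM in DMSO and 7.17, 7.14 and 6.4 CPM in PARGi (log2 fold change -0.85, edgeR adjusted p = 3.25e-10). RPS6KA2, a ribosomal S6 kinase downstream of ERK, fell from 28.4 ± 0.397 to 22.4 ± 0.701 CPM. MAP2K3, another p38 activator, rose from 75 to 85 CPM (log2 fold change 0.18). MAPK9, which encodes the JUN kinase JNK2 (0.15), and MAPK12, which encodes a p38 kinase (0.19), rose too.

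Of 7 partners of SRF (the ELK and myocardin families and FHL2), 2 were higher and 2 lower (57.1% called, beside 24.3% of all genes tested). FHL2, a LIM-domain protein that is itself a target of SRF, rose from 75.2 ± 2.69 to 116 ± 3.04 CPM (log2 fold change 0.62, edgeR adjusted p = 3.05e-13). MYOCD, myocardin, fell from 13 ± 0.984 to 8.66 ± 0.373 CPM (log2 fold change -0.58, edgeR adjusted p = 1.29e-07). ELK3 (0.091) and MRTFB (-0.087) passed by small margins, with adjusted p = 0.0158 and 0.0184, and these calls were lost in 4 and 3 of 15 alternatives (both without PARGi replicate 2, where 2 of the 7 were called). Of 21 targets of SRF and its MRTF coactivators, most of them cytoskeletal, 10 were higher and 2 lower (57.1% called) at a median of 0.06. FHL2, CCN1 and CCN2 are counted in this list too. The lower pair was FLNA, an actin cross-linker (3589 to 3302 CPM, log2 fold change -0.12), and CNN3, a calponin (-0.08), whose call was lost in 4 of 15 alternatives.

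Of 11 genes of the EGR1 axis, 7 were higher and 1 lower (72.7% called, beside 24.3% of all genes tested), at a median of 0.12. NAB1, a corepressor that EGR proteins recruit, rose from 114 ± 1.79 to 133 ± 3.99 CPM (log2 fold change 0.23, edgeR adjusted p = 1.24e-06). F3, tissue factor, rose from 25.6 ± 1.33 to 32.5 ± 0.661 CPM. PDGFB, a growth factor listed as an EGR1 target, went the other way, from 10.5 ± 1.17 to 7.43 ± 0.134 CPM (log2 fold change -0.50).

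Among 21 tested AP-1 targets, 11 were higher and 4 lower (71.4% called, beside 24.3% of all genes tested), at a median of 0.24. HBEGF, a ligand of the EGF receptor, rose most clearly, from 70.9 ± 2.22 to 127 ± 6.89 CPM (log2 fold change 0.85, edgeR adjusted p = 1.5e-14), and CD44, a hyaluronan receptor, from 84.2 ± 1.69 to 115 ± 5.34 CPM (0.46). MMP9, a gelatinase named after its values were seen, rose from 5.59 ± 0.5 to 8.87 ± 0.546 CPM (0.66). The list did not move as a block: the collagenase gene MMP13 fell from 10.4 ± 0.51 to 7.11 ± 0.321 CPM (-0.55), MMP2, the other gelatinase, from 827 ± 14.1 to 732 ± 24.8 CPM (-0.18), and the integrin gene ITGB4 from 13 ± 0.681 to 10.4 ± 1.03 CPM (-0.32). Target lists of this kind are textbook lists for many cell types and overlap each other.

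**Figure D5:**
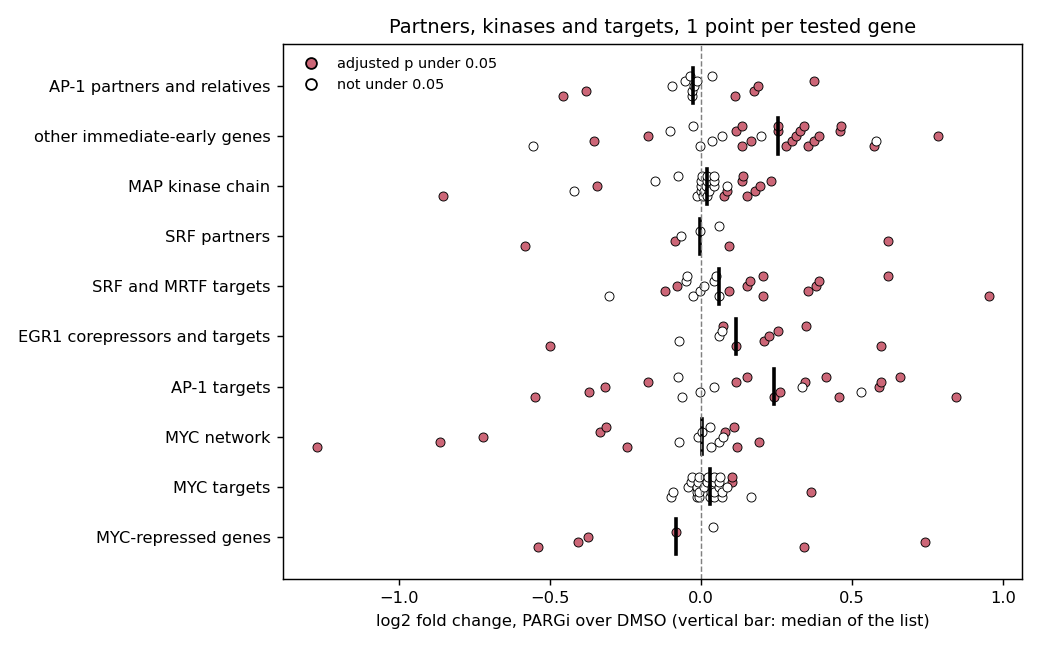
Log2 fold change of PARGi over DMSO for each tested gene of the 10 role lists (1 point per gene, filled where the adjusted p was under 0.05), with the median of each list as a vertical bar. The medians of the other immediate-early genes (0.26) and the AP-1 targets (0.24) lie furthest right, and the MYC targets are gathered near 0 (median 0.031).

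Of 32 tested MYC-activated genes, 3 were higher and 0 lower in the edgeR test, a call rate of 9.38% beside the 24.3% of all genes. With the GC and length offset, with or without the block, 9 of the 32 were called, all higher, among 5836 and 5355 calls over all genes. Without DMSO replicate 2 the count was 5 (4 higher), and without DMSO replicate 3 it was 6 (5 higher). At an unadjusted p under 0.05, 6 were higher and 0 lower, and DESeq2 and limma-voom each called 3 higher and 0 lower. The 3 were HK2, a hexokinase of glycolysis (33.4 ± 0.806 to 43 ± 1.2 CPM, log2 fold change 0.37), the mitochondrial chaperone HSPD1 (0.10) and POLR1B, an RNA polymerase I subunit (0.10), whose call was lost in 3 of 15 alternatives. In the network of MYC relatives and MAX partners, 4 of 17 were higher and 6 lower (58.8% called). The sign of their median of 0.004 turned with upper-quartile scaling (-0.021) and without DMSO replicate 1 (-0.004). MYCL, a MYC paralog, was at 7.11, 6.3 and 5.78 CPM in DMSO and 3.42, 3.77 and 3.31 CPM in PARGi (log2 fold change -0.87, edgeR adjusted p = 1.04e-07). MYCN, another paralog, named after its values were seen, fell from 2.66 ± 0.209 to 1.62 ± 0.0585 CPM (-0.72, edgeR adjusted p = 7.6e-05). Of the MAX partners that oppose MYC, some fell, among them MXD4 from 90.9 ± 2.27 to 73.1 ± 1.64 CPM (-0.32) and MXI1 from 39.6 ± 0.604 to 31.3 ± 1.15 CPM (-0.33), while MXD1 (0.071, edgeR adjusted p = 0.592) and MXD3 (-0.011, edgeR adjusted p = 0.862), named after their values were seen, did not pass. MAX (63.3 to 68.3 CPM, 0.11) and FBXW7, which marks MYC protein for degradation (34.8 to 39.8 CPM, 0.19), were higher. Of 7 genes that MYC is known to repress, 2 were higher and 4 lower (85.7% called). CDKN1A (0.74) and GADD45A (0.34), both also p53 targets, rose, while CDKN1B, the p27 inhibitor (130.4 ± 1.72 to 101 ± 2.77 CPM, -0.37), CDKN1C (-0.54) and GAS1 (-0.41) fell.

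By centred log2 CPM over the 6 libraries, the genes whose profile was nearest to that of EGR1 were RET, a receptor tyrosine kinase gene, TRIB1, a pseudokinase gene, and ULBP2, which encodes a ligand of an immune receptor, with root-mean-square differences of 0.049, 0.0493 and 0.0499 in log2 units. TRIB1 was at 31.2, 33.4 and 35.7 CPM in DMSO and 45.7, 47.4 and 46.1 CPM in PARGi. The likeness rests on 6 libraries and mostly on the step between the groups, and it is a description.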

How the data were processed

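RNA from 3 DMSO and 3 PARGi samples was measured as total RNA libraries made with a stranded kit, per the labels' protocols. Each deposited file lists unnormalized counts, 1 whole number for each gene, and the submitters' processing notes list cutadapt 1.18, STAR 2.7.3a, SAMtools 1.9 and the build hg38. The annotation release, the strand setting and the handling of reads that match several genes are not given in the sources used here. Counts of overlapping genes are therefore less certain.

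Groups and replicate numbers came from the sample titles. The test was edgeR 4.0.16 (R 4.3.3): genes kept by filterByExpr and scaled by TMM (trimmed mean of M-values) were fitted by quasi-likelihood (glmQLFit, glmQLFTest) with treatment as the only term over 6 libraries. Tests were two-sided, p-values were adjusted by Benjamini-Hochberg over 20409 genes, and 0.05 was the threshold. An SE was taken as |log2 fold change| divided by the root of the F statistic. Of the 60708 identifiers, 58440 were found in GENCODE 29. RPKM are TMM-scaled CPM over exonic length in GENCODE 29. Intervals of 95% rest on the spread between libraries. The script was tested on simulated data. Alternatives were DESeq2 1.42.0, limma-voom (limma 3.58.1), DESeq2's size factors, upper-quartile scaling, no filter, at least 10 counts in every library, the replicate block, an offset for GC content and length (loess, span 0.3), both together, and each library left out. The members and lists were chosen with earlier results of these data known. Named genes were all members, up to 3 called genes per list and direction by p, and the 3 genes nearest to the member with the smallest p. A few genes that this rule names are not reported here. No chance test over the members was made. Promoter sequences are RefSeq's (GRCh38.p14), used for 8 of the 10 members, without FOSL1 and MYC. Member entries on chromosome 8, where MYC lies, were left out of the search by rule. Libraries held 60286931 to 80605145 counts, and FOSB had 35 to 80 of them. Figures used matplotlib 3.10.9.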

Additional observations from a re-analysis of the deposited data

How the results depend on the processing

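The count of factors called, 6 of 10, was 5 with upper-quartile scaling, 7 with the GC and length offset, with or without the block, and 5 to 6 with a library left out. FOSL1, FOSL2, JUNB, JUND and EGR1 kept direction and call in all 15 alternatives, and FOSB and SRF kept their direction and passed in none. JUN lost its call with upper-quartile scaling (0.075) and in 4 leave-out fits (0.068 to 0.096 there, 0.068 to 0.134 over the 6). FOS turned to -0.006 with upper-quartile scaling and ran from -0.058 to 0.077 with a library left out. MYC passed at 0.091 with the GC and length offset and at 0.091 with the block added. Upper-quartile scaling moved the median of all genes from -0.007 to -0.032 and the share of higher calls from 54.5% to 40.5%, and the offset moved that share to 64.8%. No label ties equal replicate numbers together, and the deviations of same-numbered libraries correlated at -0.00585, 0.0157 and -0.00784 across genes. These values show no shared shift of same-numbered libraries, but they cannot exclude that such libraries were handled together. With the replicate block 4553 genes were called against 4951, the factors called stayed at 6, and not every library correlated best with its own number.

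Medians changed sign for the AP-1 partners (-0.035 to 0.008 with a library left out, 0.008 without DMSO replicate 3), the MAP kinases (-0.004, upper-quartile scaling), the MYC network (-0.021, upper-quartile scaling; -0.004, without DMSO replicate 1, to 0.028 with a library left out) and the SRF partners (-0.002 reported; 0.002 with no filter, 0.003 with the offset, 0.002 with block and offset, 0.004, 0.011 and 0.013 without DMSO replicate 2, DMSO replicate 3 and PARGi replicate 1, with -0.024 the lowest with a library left out). Of the 180 list genes tested, 88 were called in the main fit, beside 24.3% of all genes tested. Over the alternatives 77 to 101 were called. The difference in FOSL1 share was 4.16 percentage points per length and 1.64 on raw counts, that of FOSL2 -3.3 and -1.27, and that of FOSB 0.0134, or -0.0138 (without DMSO replicate 2) to 0.0458 with a library left out. The causes were not tested. Depth limits FOSB, with 35 to 80 counts a library.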
